A study of Mus musculus with 6 samples.

Results

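The genes described here encode the inhibitory checkpoint receptors Ctla4, Pdcd1, Btla, Cd160, Tigit, Lag3, Havcr2 and Vsir and the ligands Cd274 and Pdcd1lg2. They were taken as a named group of 10 genes, whose symbols were matched to the Ensembl identifiers of the count table. All 10 were among the 26128 genes listed, and all 10 were among the 14671 genes tested after the filter on low counts. RNA was sequenced from double negative T (DNT) cells, which are T cells with CD3 but neither CD4 nor CD8 on the surface, to compare cells with and without interleukin-33 (IL-33), an alarmin cytokine of the IL-1 family. Both groups started as CD4+CD25- T cells of adult C57BL/6 mice from spleen and lymph nodes, were converted in culture with mature dendritic cells of DBA/2 mice and IL-2, were sorted as CD3+NK1.1-CD4-CD8- cells, and stayed for 48 h on beads that carry antibodies to CD3 and CD28. The control group (n = 3 libraries) had no IL-33 and the IL-33 group (n = 3 libraries) had IL-33 at 50 ng/ml. Whether the libraries of a group stem from different mice or cultures is not given in the labels or methods, so the p values measure the spread between these libraries, which may be technical.

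Checkpoint receptors are surface proteins that damp signals from the T cell receptor and from CD28, and T cells acquire or raise many of them after activation. CTLA-4 competes with CD28 for CD80 and CD86, and TIGIT competes with CD226 for the poliovirus receptor and nectin-2. PD-1, BTLA and TIGIT act through tyrosine motifs in their cytoplasmic tails. Those of PD-1 and BTLA recruit phosphatases such as SHP-1 and SHP-2. In activated T cells many of these receptors are known both as marks of recent stimulation and, when held high together, as marks of exhaustion. RNA levels do not give the amount of protein on the surface.

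The coding sequence of these tyrosine motifs is shown because the receptors differ in which of them they carry. The stretches were read from the GENCODE M21 transcripts, searched behind the last hydrophobic segment of each coding sequence, and are printed 5′ to 3′ with the codons of the motif in capitals. ITIM stands for the immunoreceptor tyrosine-based inhibitory motif and ITSM for the switch motif. The motif of Ctla4 is the short one through which CTLA-4 binds the clathrin adaptor AP-2 and, when phosphorylated, phosphatidylinositol 3-kinase. No other kind of signalling motif was searched for, so the tails may hold others.
Pdcd1 ITIM: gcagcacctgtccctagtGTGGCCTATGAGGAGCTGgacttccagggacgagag
Pdcd1 ITSM: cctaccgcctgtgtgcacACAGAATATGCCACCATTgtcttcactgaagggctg
Btla ITIM: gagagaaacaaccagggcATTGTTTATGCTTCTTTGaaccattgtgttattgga
Btla ITSM: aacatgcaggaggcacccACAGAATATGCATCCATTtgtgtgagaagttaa
Tigit ITIM: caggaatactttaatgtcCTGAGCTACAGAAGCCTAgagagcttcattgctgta
Ctla4 tyrosine motif: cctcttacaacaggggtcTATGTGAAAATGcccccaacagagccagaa
The tyrosine codons were numbers 225 and 248 of the 288 codons of Pdcd1, 274 and 299 of the 306 of Btla, 228 of the 241 of Tigit and 201 of the 223 of Ctla4. No such match was found behind the segment in Lag3, Havcr2, Vsir, Cd274 or Pdcd1lg2, of which Lag3, Havcr2 and Vsir have tails of 61, 67 and 97 codons. No such segment was found in Cd160, whose protein is held in the membrane by a lipid anchor. The genes with a match moved in different directions with IL-33, as the values below show.

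The libraries held 20256342 to 22336050 counts, and 3 counts, taken as the limit of detection, were 0.135 to 0.148 CPM, a unit that scales a gene's counts by the library's TMM-adjusted total. Markers of T cells other than Cd5 were high in every library. Cd5 was low, at 6.68 ± 0.266 CPM in the control group and 4.97 ± 0.652 CPM with IL-33 (SD, n = 3). The summed level of 10 T cell identity genes was 3460 to 3570 CPM in the control libraries and 3500 to 3610 CPM with IL-33. Of these, Cd3g was higher and Lat, Lck, Cd2 and Cd5 were lower with IL-33 by edgeR's adjusted p. The coreceptor gene Cd4 was near the limit of detection at 0.934 ± 0.183 CPM in the control group and 0.373 ± 0.143 CPM with IL-33 (SD, n = 3). Cd8a went against the sort by surface CD8, with 545 ± 13.6 CPM in the control group and 400 ± 9.15 CPM with IL-33 (SD, n = 3).

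IL-33 was followed by a split among the checkpoint genes. Ctla4 rose 1.65-fold, Vsir and Tigit rose by less, Lag3 and Pdcd1 fell by about the same amount as each other, and Cd274 and Cd160 fell slightly. With edgeR's quasi-likelihood test and Benjamini-Hochberg adjustment over all genes tested, 3 of the 10 genes were higher with IL-33 at an adjusted p under 0.05, beside 13.6% of all genes tested. By the same rule 4 of the 10 were lower, beside 13.9% of all genes tested. With the study's second threshold added, a fold change of at least 1.5 in either direction, 1 gene (Ctla4) was higher, beside 2.47% of all genes tested, and 0 were lower, beside 2.39%. At an unadjusted p under 0.05, 3 were higher and 5 lower, beside 18.7% and 18.6% of all genes tested, and DESeq2 and limma-voom also placed 0 past both thresholds on the lower side. The shares over all genes tested were not matched for level. All the checkpoint genes but Btla lay at percentile 80.7 or above by control level per length of exons. The median log2 fold change of the 10 genes was -0.042, near the median of -0.00063 over all genes tested.

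**Figure D1:**
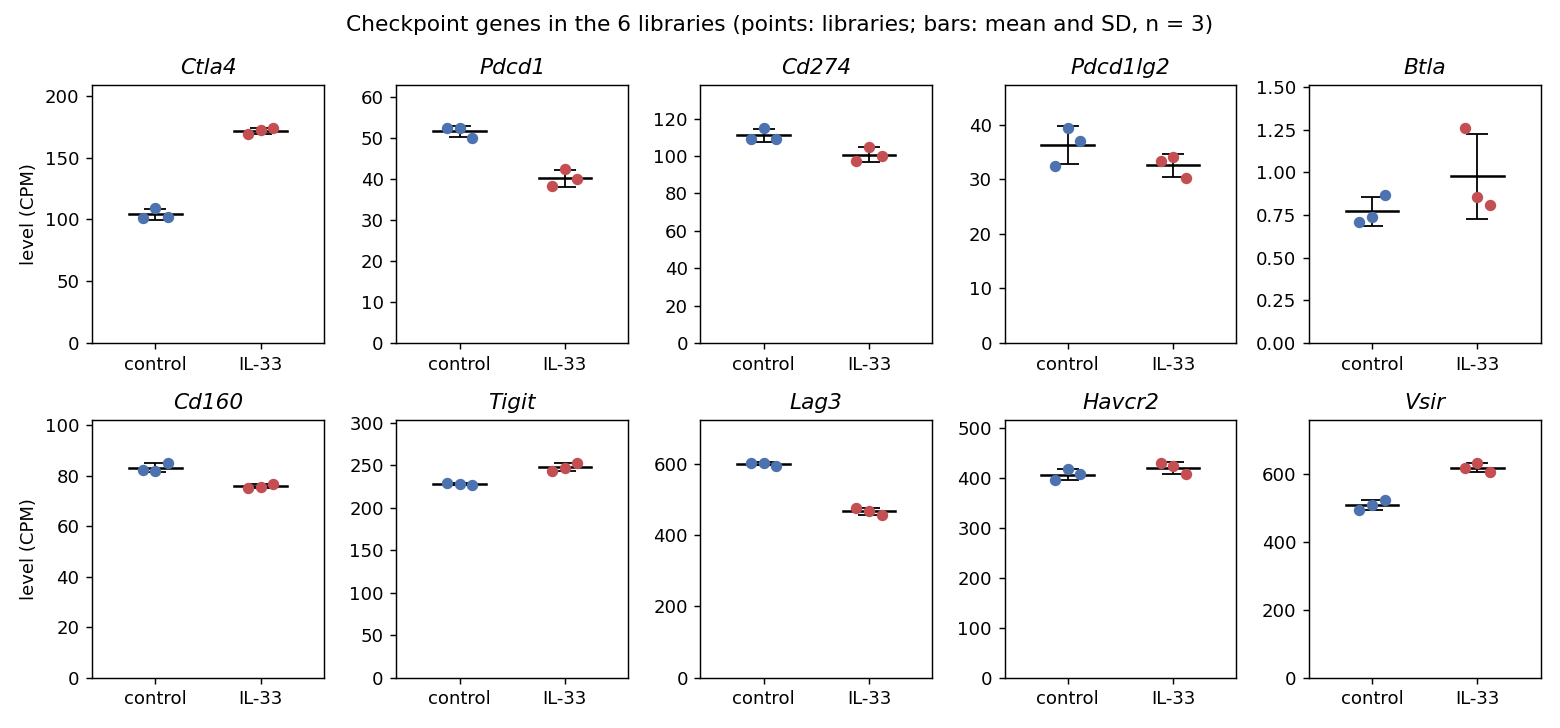
Level of each checkpoint gene in CPM (vertical axes from 0, a scale for each panel) in the 3 control libraries (blue) and the 3 IL-33 libraries (red), with the mean and SD as bars. The groups do not overlap for 7 of the 10 genes, and they overlap for Pdcd1lg2, Btla and Havcr2.

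CTLA-4, the competitor of CD28, showed the largest change in size among the checkpoint genes with an adjusted p under 0.05. Ctla4 (ENSMUSG00000026011) lies on chromosome 1 from 60887000 to 60915832 on the plus strand (GRCm38, GENCODE M21). Its level was 101, 109 and 102 CPM in the control libraries and 169, 172 and 174 CPM in the IL-33 libraries. Every IL-33 library lay far above every control library, and the IL-33 libraries lay close together. The mean rose from 104 ± 4.36 to 171 ± 2.60 CPM (SD, n = 3), a log2 fold change of 0.72 with a standard error of 0.0386 and a 95% interval of 0.65 to 0.80 (adjusted p = 1.59e-31, edgeR). That interval lay above the fold change threshold, and Ctla4 was also called in the test against that threshold. Counts per gene do not separate the transcript forms of Ctla4, which include a soluble one.

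Ctla4 sits in a cluster with its costimulatory relatives Cd28 and Icos, so the balance between them was read within each library, where it does not depend on scaling. Ctla4 had 0.713, 0.706 and 0.733 counts for each count of Cd28 in the control libraries and 1.05, 1.05 and 1.11 with IL-33. The ratio was higher in every IL-33 library than in every control library. It sets counts side by side without regard to length, and per kb of exons Ctla4 lay above Cd28 in both groups, with 44.6 against 23.7 CPM per kb in the control group and 73.6 against 26.1 with IL-33. The log2 difference was 0.58 (exact permutation test, two-sided, p = 0.1, the smallest that 3 against 3 libraries allow). Cd28 itself rose slightly, from 145 ± 8.28 to 160 ± 3.67 CPM (SD, n = 3), a log2 fold change of 0.14 (edgeR, adjusted p = 0.00258). Icos, which signals for T cell help, rose from 65.8 ± 2.47 to 90.2 ± 10.5 CPM (SD, n = 3), a log2 fold change of 0.46 (edgeR, adjusted p = 0.00174). The ratio of Ctla4 to Icos was 1.58 ± 0.0897 in the control group and 1.92 ± 0.259 with IL-33 (SD, n = 3), with a log2 difference of 0.27 (exact permutation test, p = 0.1). The IL-33 libraries were spread more widely in this ratio, from 1.69 to 2.20, than in the ratio to Cd28. The lowest of them lay just above the highest control library, at 1.67. The log2 difference was 0.17 without IL-33 replicate 3.

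**Figure D2:**
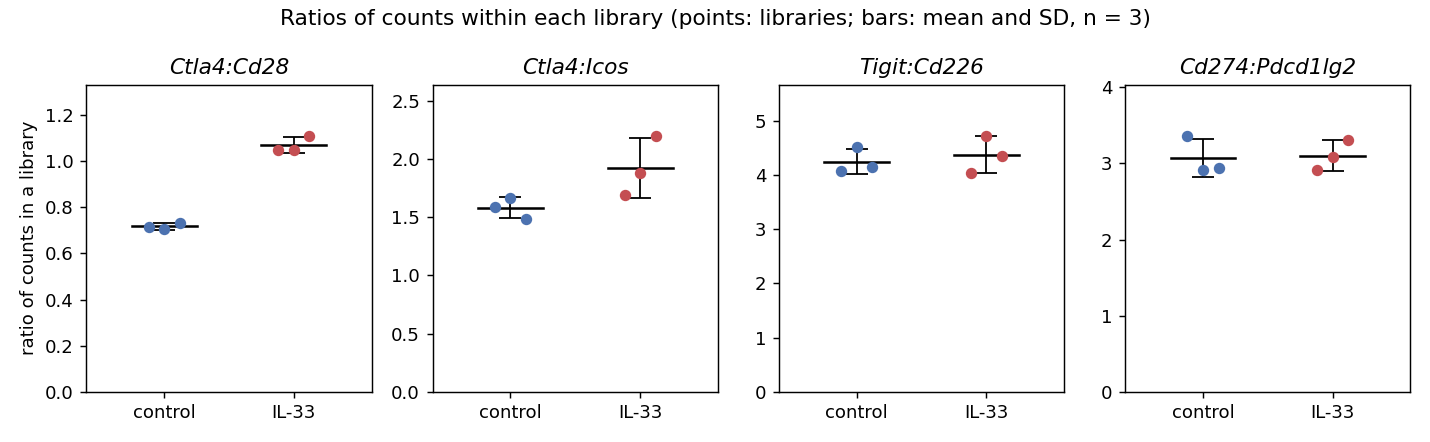
Ratios of counts within each library (vertical axes from 0) for 4 pairs of genes in the control libraries (blue) and the IL-33 libraries (red), with the mean and SD as bars. The ratios of Ctla4 to Cd28 and, narrowly, to Icos do not overlap between groups, and those of Tigit to Cd226 and of Cd274 to Pdcd1lg2 do.

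The proximal promoter of Ctla4, the gene with the clearest rise, is shown here with that of Pdcd1, which fell. Both come from RefSeq (GRCm38.p6), run 5′ to 3′ on the strand of the gene, and cover 250 bases before to 50 bases after the gene's start in RefSeq, which for Ctla4 lies inside the longer GENCODE gene given above. Capitals mark a match to the NFAT core, searched on both strands as GGAAAA.
Ctla4, chr1:60908775-60909074, plus strand: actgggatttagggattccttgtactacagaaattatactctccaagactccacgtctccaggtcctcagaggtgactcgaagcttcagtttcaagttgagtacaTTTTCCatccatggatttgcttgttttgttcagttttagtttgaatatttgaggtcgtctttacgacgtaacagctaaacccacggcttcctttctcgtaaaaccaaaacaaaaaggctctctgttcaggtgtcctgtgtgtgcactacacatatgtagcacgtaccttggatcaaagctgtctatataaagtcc
Pdcd1, chr1:94052504-94052803, minus strand: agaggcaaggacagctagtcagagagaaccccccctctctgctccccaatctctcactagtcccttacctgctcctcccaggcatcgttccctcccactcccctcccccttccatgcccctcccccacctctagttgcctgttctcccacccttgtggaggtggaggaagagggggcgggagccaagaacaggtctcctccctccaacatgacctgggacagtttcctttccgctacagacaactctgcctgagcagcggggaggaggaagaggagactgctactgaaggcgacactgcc
The match of Ctla4 began 145 bases before that RefSeq start, and 23.4% of 32851 mouse promoters of this length hold such a match. The NFAT core also matched in the promoters of Tigit, which rose, and Pdcd1lg2, which was not called. It had no match in that of Vsir, which rose. The AP-1 motif (TGANTCA), the NF-κB motif (GGG, any 3 bases, TTCC) and the STAT motif (TTCNNNGAA) had no match in either window. These motifs were found in 7.81%, 5.56% and 8.30% of the mouse promoters, in that order. Among the other checkpoint genes, AP-1 matched in the promoter of Havcr2, and NF-κB and STAT matched in promoter 2 of Cd160. Such matches describe letters and not binding.

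PD-1 and its ligands were lower with IL-33 or not called. PD-1, encoded by Pdcd1, recruits SHP-2 to the T cell receptor and CD28 when it binds PD-L1 or PD-L2. Pdcd1 (ENSMUSG00000026285) lies on chromosome 1 from 94038305 to 94052553 on the minus strand. Its level was 52.4, 52.5 and 50.1 CPM in the control libraries and 38.3, 42.4 and 40 CPM with IL-33. All IL-33 libraries lay below all control libraries. The mean was 51.6 ± 1.34 CPM in the control group and 40.2 ± 2.05 CPM with IL-33 (SD, n = 3), a log2 fold change of -0.36 with a standard error of 0.0585 (95% interval -0.48 to -0.24, adjusted p = 2.58e-07, edgeR). The interval excluded the fold change threshold.

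The study lists real-time PCR primers for Pdcd1, which show the part of the transcript that such an assay would read. They are printed 5′ to 3′ in lower case, with those for Cd160.
Pd1 sense primer: cgtccctcagtcaagaggag
Pd1 antisense primer: gtccctagaagtgcccaaca
Cd160 sense primer: ggggctaatactcttctggtgc
Cd160 antisense primer: cttttcagtgatgccatctgtct
Against the GENCODE M21 transcripts the Pd1 primers matched Pdcd1-201 and bound a product of 243 bases, from base 984 to base 1226. The Cd160 primers bound a product of 112 bases in each of 3 transcripts of Cd160. The counts used here cover the whole gene.

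PD-L1, encoded by Cd274, is the widely expressed ligand of PD-1 and also binds CD80. Cd274 (ENSMUSG00000016496) lies on chromosome 19 from 29367455 to 29388095 on the plus strand. Its level was 109, 115 and 109 CPM in the control libraries and 97.2, 105 and 99.9 CPM with IL-33. The groups did not overlap, though the gap between them was small. The mean was 111 ± 3.31 CPM in the control group and 101 ± 4.17 CPM with IL-33 (SD, n = 3), a log2 fold change of -0.14 with an adjusted p of 0.00687 and a standard error of 0.0409 (edgeR). The call rested on single libraries, since the adjusted p was 0.0619 without control replicate 2 and 0.0716 without IL-33 replicate 1. An antisense gene of the annotation, AC119228.1, shares 511 exon bases with Cd274, and the use of strand in counting is not given in the sources used here.

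PD-L2, encoded by Pdcd1lg2, is the ligand of PD-1 found mainly on antigen presenting cells. Pdcd1lg2 (ENSMUSG00000016498) lies 22824 bases beyond Cd274, on chromosome 19 from 29410919 to 29471161 on the plus strand. Its level was 32.4, 39.4 and 37.0 CPM in the control libraries and 33.3, 34.1 and 30.2 CPM with IL-33. Control replicate 1 lay among the IL-33 libraries, so the groups overlapped. The means were 36.3 ± 3.53 and 32.5 ± 2.07 CPM (SD, n = 3), with a log2 fold change of -0.16 (95% interval -0.29 to -0.02, adjusted p = 0.0804, edgeR). The value rested on single libraries in both directions, with a log2 fold change of -0.23 (adjusted p = 0.0103) without control replicate 1, -0.09 (adjusted p = 0.425) without control replicate 2 and -0.10 (adjusted p = 0.355) without IL-33 replicate 3, all by edgeR. Cd274 had 3.07 ± 0.253 counts for each count of Pdcd1lg2 in the control group and 3.10 ± 0.196 with IL-33 (SD, n = 3, exact permutation test, p = 0.9), a difference smaller than the spread between libraries. The antisense gene A930007I19Rik, which overlaps Pdcd1lg2 with 0 shared exon bases, fell from 1.56 ± 0.036 to 0.838 ± 0.224 CPM (SD, n = 3), by 0.89 on the log2 scale (edgeR, adjusted p = 0.0407).

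BTLA and CD160 are receptors for the same partner, HVEM, which is encoded by Tnfrsf14. Btla (ENSMUSG00000052013) lies on chromosome 16 from 45224315 to 45257670, and it was the only checkpoint gene near the limit of detection. It had 15, 15 and 19 counts in the control libraries and 27, 18 and 18 counts with IL-33, or 0.707 to 0.867 CPM and 0.810 to 1.26 CPM. The groups overlapped, and IL-33 replicate 1 lay above the rest. The log2 fold change of 0.33 had a 95% interval of -0.43 to 1.10 (adjusted p = 0.576, edgeR), and it was 0.11 without IL-33 replicate 1. A difference of this size was not detectable at this depth, where counting error alone was 24.7% for a single library at the mean control count.

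Cd160 (ENSMUSG00000038304) lies on chromosome 3 from 96798763 to 96829351. It had 82.2, 81.8 and 85.1 CPM in the control libraries and 75.1, 75.5 and 76.7 CPM with IL-33. The IL-33 libraries were closely grouped below the control libraries. The mean was 83.0 ± 1.81 CPM in the control group and 75.8 ± 0.826 CPM with IL-33 (SD, n = 3), a log2 fold change of -0.13 with an adjusted p of 0.0130 and a standard error of 0.0429 (edgeR). The adjusted p was 0.0845 without control replicate 3 and 0.0633 without IL-33 replicate 1 (edgeR). The paper counts Cd160 among activation receptors and reports similar expression with and without IL-33. The change of 0.912-fold found here did not reach the study's fold change threshold of 1.5. Cd160 shares 68 exon bases with Pdzk1 on the other strand, which had 0.548 CPM in the control group and 0.748 CPM with IL-33. Tnfrsf14 had 32.5 ± 0.418 and 30.1 ± 1.64 CPM (SD, n = 3), with a log2 fold change of -0.11 (edgeR, adjusted p = 0.249). Btla had 0.00955 ± 0.000809 counts for each count of Cd160 in the control group and 0.0132 ± 0.00335 with IL-33 (SD, n = 3, exact permutation test, p = 0.1), on the few counts of Btla given above, and the log2 difference of 0.44 was 0.24 without IL-33 replicate 1.

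TIGIT binds the poliovirus receptor with higher affinity than its activating rival CD226. Tigit (ENSMUSG00000071552) lies on chromosome 16 from 43648867 to 43664146. Its level was 229, 228 and 227 CPM in the control libraries and 243, 247 and 253 CPM with IL-33. Every IL-33 library lay above the tightly grouped control libraries. The mean rose from 228 ± 1.14 to 248 ± 4.93 CPM (SD, n = 3), a log2 fold change of 0.12 with a 95% interval of 0.053 to 0.18 (adjusted p = 0.00306, edgeR). Cd226 had 53.8 ± 3.02 and 56.8 ± 4.02 CPM (SD, n = 3), and its log2 fold change of 0.08 did not pass the test (edgeR, adjusted p = 0.298). Tigit had 4.25 ± 0.238 counts for each count of Cd226 in the control group and 4.37 ± 0.341 with IL-33 (SD, n = 3, exact permutation test, p = 0.7), so the balance within a library moved by less than its spread.

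LAG-3, a relative of CD4 that binds MHC class II and damps T cell receptor signalling, was the member with the highest level per length in the control group. Lag3 (ENSMUSG00000030124) lies on chromosome 6 from 124904361 to 124911705, with 16140 bases between it and Cd4. Its level was 604, 603 and 596 CPM in the control libraries and 477, 467 and 457 CPM with IL-33. The libraries of each group lay close together and the groups were far apart. The mean was 601 ± 4.2 CPM in the control group and 467 ± 9.99 CPM with IL-33 (SD, n = 3), a log2 fold change of -0.36 with a standard error of 0.0272 (95% interval -0.42 to -0.31, adjusted p = 8.25e-22, edgeR). Cd4 also fell, by 1.31 on the log2 scale (edgeR, adjusted p = 0.0233), but from counts of 16 to 22 per control library to 5 to 11 per IL-33 library. Lag3 had 644 ± 130 counts for each count of Cd4 in the control group and 1300 ± 494 with IL-33 (SD, n = 3, exact permutation test, p = 0.1).

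TIM-3, encoded by Havcr2, binds galectin-9 and other partners and marks strongly stimulated T cells. Havcr2 (ENSMUSG00000020399) lies on chromosome 11 from 46454935 to 46481255. Its level was 395, 417 and 407 CPM in the control libraries and 430, 423 and 407 CPM with IL-33. The groups overlapped, with IL-33 replicate 3 among the control libraries. The means were 406 ± 11.2 and 420 ± 12.2 CPM (SD, n = 3), and the log2 fold change of 0.048 had a 95% interval of -0.0095 to 0.11 (adjusted p = 0.227, edgeR). With a library left out it ran from 0.028 to 0.074. In folds that interval ran from 0.993 to 1.08, which leaves out changes of the size seen for Lag3 or Vsir.

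VISTA, encoded by Vsir, is a B7 relative that acts as a ligand and as a receptor and is known for holding T cells quiescent. Vsir (ENSMUSG00000020101) lies on chromosome 10 from 60346851 to 60372684. Its level was 494, 509 and 523 CPM in the control libraries and 616, 632 and 604 CPM with IL-33. The groups did not overlap. The mean rose from 508 ± 14.9 to 618 ± 14.1 CPM (SD, n = 3), a log2 fold change of 0.28 with a standard error of 0.0273 (95% interval 0.23 to 0.33, adjusted p = 1.51e-15, edgeR). Vsir lies inside Cdh23 on the other strand with 0 shared exon bases, and Cdh23 rose from 16.8 ± 0.108 to 24.9 ± 1.58 CPM (SD, n = 3), a log2 fold change of 0.57 (edgeR, adjusted p = 3.69e-08).

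**Figure D3:**
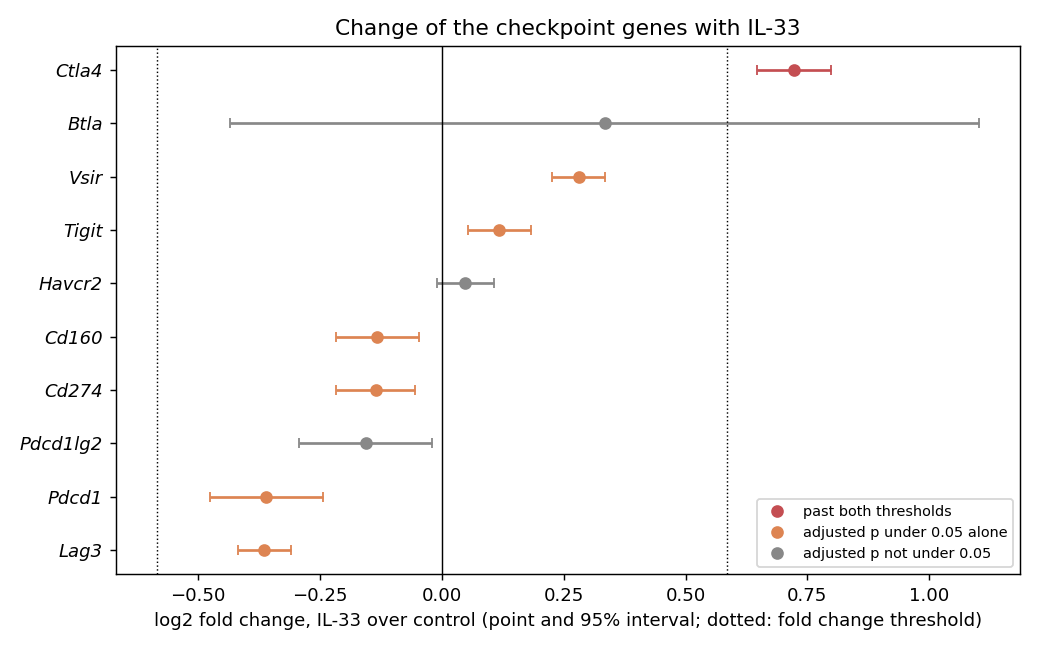
Log2 fold change of each checkpoint gene, IL-33 over control (horizontal axis), with the 95% interval from edgeR, and dotted lines at the fold change threshold of 1.5 in either direction. Ctla4 alone has its interval above the threshold, the intervals of Lag3 and Pdcd1 lie below 0 and within the thresholds, and that of Btla is the widest.

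Over the whole group, the libraries did not overlap between groups for 7 of the 10 genes, beside 38.9% of all genes tested, a share not matched for level. The 3 higher and the 4 lower genes nearly offset each other, since the summed level of the 10 genes was 2100 to 2150 CPM in the control libraries and 2140 to 2200 CPM with IL-33. In bulk RNA, fewer cells with a transcript and less of it per cell cannot be told apart.

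Levels were compared between genes per length, as CPM per kb of exons in GENCODE M21. In the control group Lag3 led with 285 ± 1.99 CPM per kb, ahead of Tigit with 248 ± 1.24 (SD, n = 3). With IL-33 the order of these turned, with Tigit at 269 ± 5.37 and Lag3 at 221 ± 4.74 CPM per kb (SD, n = 3). In neither group did their libraries overlap, but an error in a length would be shared by all libraries. The order rests on exon lengths of 919 bases for Tigit and 2109 for Lag3, from an annotation that may not be the one counted on. Without division by length Lag3 lay above Tigit in both groups. The means were 601 against 228 CPM in the control group and 467 against 248 CPM with IL-33. Havcr2 and Vsir followed in both groups, with 149 and 101 CPM per kb in the control group and 154 and 123 with IL-33. Ctla4 was the fifth in both, at 44.6 ± 1.87 CPM per kb in the control group and 73.6 ± 1.12 with IL-33 (SD, n = 3). Cd160 and Cd274 could not be ordered, since their libraries overlapped at 31.4 ± 0.686 and 30.6 ± 0.914 CPM per kb in the control group (SD, n = 3) and overlapped with IL-33 as well. Pdcd1 and Pdcd1lg2 came next with 26.8 and 18.5 CPM per kb in the control group and 20.8 and 16.6 with IL-33, and Btla was the last with 0.227 and 0.287. Among all genes tested, the control level per length of Lag3 was at percentile 99.1, of Tigit at 99.0, of Havcr2 at 98.2 and of Vsir at 97.2, while that of Btla was at 5.63.

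**Figure D4:**
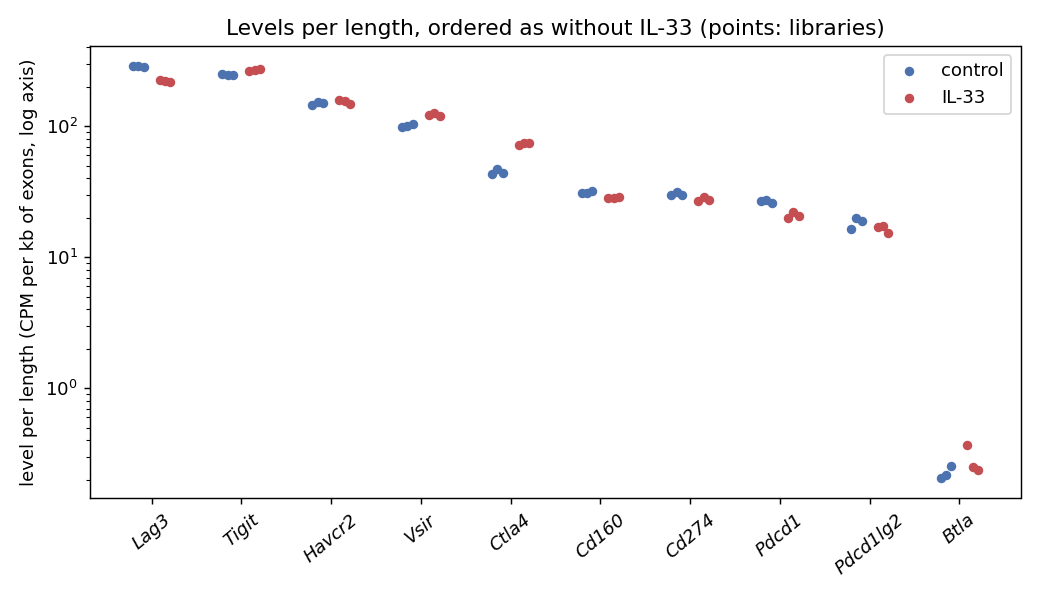
Level per length of the checkpoint genes in CPM per kb of exons (log axis), ordered as in the control group, with a point for each control library (blue) and each IL-33 library (red). With the exon lengths used, Lag3 lies above Tigit without IL-33 and below it with IL-33, and Btla lies far below the other 9 genes.

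The genes around the receptors were read from fixed lists. The counts called in each list below stand beside 13.6% of all genes tested called higher and 13.9% called lower (edgeR, adjusted p). Of 14 binding partners, 11 could be tested, of which 6 were higher and 3 lower with IL-33 by edgeR's adjusted p, with a median log2 fold change of 0.20. The poliovirus receptor gene Pvr, a ligand of TIGIT and CD226, rose from 14.6 ± 0.556 to 20.7 ± 2.59 CPM (SD, n = 3), a log2 fold change of 0.50 (edgeR, adjusted p = 9.50e-06). Nectin2, another ligand of TIGIT, was past both thresholds but rose only from 0.193 ± 0.149 to 0.572 ± 0.0554 CPM (SD, n = 3), with an adjusted p of 0.0385 (edgeR). Nectin3 fell past both thresholds from 2.06 ± 0.319 to 1.18 ± 0.400 CPM (SD, n = 3, edgeR, adjusted p = 0.0322). Cd80, a ligand of CTLA-4 and CD28, rose from 5.19 ± 0.982 to 7.24 ± 0.601 CPM (SD, n = 3), a log2 fold change of 0.48 (edgeR, adjusted p = 0.0108). Cd86, their other ligand, was not called, with a log2 fold change of -0.21 (edgeR, adjusted p = 0.71). Ceacam1, also on the list, fell from 4.83 ± 1.21 to 3.23 ± 1.12 CPM (SD, n = 3, edgeR, adjusted p = 0.0225), though its groups overlapped. The partners with higher levels moved in both directions. Hmgb1, a nuclear protein that TIM-3 can bind when released, fell from 202 ± 1.10 to 185 ± 3.8 CPM (SD, n = 3), by 0.13 on the log2 scale (edgeR, adjusted p = 0.00195). Lgals9, a ligand of TIM-3, rose from 65.5 ± 1.93 to 80.3 ± 1.8 CPM (SD, n = 3), a log2 fold change of 0.29 (edgeR, adjusted p = 5.97e-08). Lgals3, which can bind LAG-3, rose by a log2 fold change of 0.24, and Selplg, the P-selectin ligand gene whose product can bind VISTA, by 0.20.

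Of the 7 costimulatory counterparts 3 were higher and 2 lower (edgeR, adjusted p), with a median log2 fold change of 0.08. Besides Cd28 and Icos, Slamf6, a self-binding receptor, rose past both thresholds from 8.75 ± 0.333 to 15.9 ± 1.34 CPM (SD, n = 3), a log2 fold change of 0.86 (edgeR, adjusted p = 3.48e-10). Crtam, an adhesion receptor of activated T cells, was lower by 0.39 and Cd2, which binds CD48, by 0.16 (edgeR, adjusted p = 0.000183 and 0.00165). Of 23 other inhibitory receptors and related genes, 14 could be tested, of which 4 were higher and 5 lower. Cd300a, which carries inhibitory motifs of its own, was past both thresholds and had the largest change of these lists, from 0.490 ± 0.124 to 5.25 ± 0.624 CPM (SD, n = 3), a log2 fold change of 3.41 (edgeR, adjusted p = 2.72e-20). Lilrb4a, an inhibitory receptor at a level near that of Lag3, fell from 605 ± 14.8 to 472 ± 16.6 CPM (SD, n = 3), by 0.36 on the log2 scale (edgeR, adjusted p = 8.51e-21). The collagen receptor gene Lair1 fell from 33.7 ± 0.151 to 25.2 ± 0.561 CPM (SD, n = 3, edgeR, adjusted p = 8.47e-07).

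Among 20 signalling and trafficking genes 2 were higher and 7 lower (edgeR, adjusted p), with a median log2 fold change of -0.043. Ptpn6, the gene of the phosphatase SHP-1, fell from 84.0 ± 2.8 to 65.3 ± 0.664 CPM (SD, n = 3), by 0.36 on the log2 scale (edgeR, adjusted p = 3.00e-11). Ptpn11, the gene of SHP-2, had 144 ± 2.93 and 139 ± 6.97 CPM (SD, n = 3), and an adjusted p of 0.333 (edgeR). Trat1, which encodes an adaptor that carries CTLA-4 to the surface, moved against Ctla4 and fell past both thresholds from 67.1 ± 3.14 to 42.0 ± 2.97 CPM (SD, n = 3), by 0.67 on the log2 scale (edgeR, adjusted p = 1.56e-19). Lrba, which protects CTLA-4 from degradation, rose from 79.0 ± 3.60 to 85.7 ± 2.69 CPM (SD, n = 3, edgeR, adjusted p = 0.0311), though its groups overlapped. Cmtm4, which stabilises PD-L1, fell past both thresholds from 11.3 ± 0.881 to 6.85 ± 0.358 CPM (SD, n = 3, edgeR, adjusted p = 2.34e-06). Its more abundant relative Cmtm6 had 147 ± 3.86 and 146 ± 2.01 CPM (SD, n = 3) with an adjusted p of 0.967 (edgeR).

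Of 25 transcription regulators with known ties to checkpoint genes 6 were higher and 11 lower (edgeR, adjusted p), with a median log2 fold change of -0.17. Those past both thresholds on the lower side were Maf, Nr4a2 and Nr4a3, where the NR4A receptors are induced by T cell receptor signals. Maf fell from 118 ± 6.89 to 75.1 ± 4.61 CPM and Nr4a3 from 64.1 ± 4.2 to 37.0 ± 2.16 CPM (SD, n = 3), by 0.65 and 0.79 on the log2 scale (edgeR, adjusted p = 2.15e-22 and 1.79e-22). Nr4a2 fell from 43.6 ± 5.40 to 25.9 ± 1.74 CPM (SD, n = 3, edgeR, adjusted p = 7.12e-14). Fos, a subunit of AP-1, was the only one past both on the higher side, from 5.35 ± 0.618 to 8.98 ± 0.940 CPM (SD, n = 3, edgeR, adjusted p = 1.10e-05). Prdm1, which encodes Blimp-1, rose from 66.0 ± 5.16 to 97.0 ± 4.26 CPM (SD, n = 3), a log2 fold change of 0.55 (edgeR, adjusted p = 9.06e-18). Tox, a regulator tied to exhaustion, was at 1.23 ± 0.342 CPM in the control group and 0.706 ± 0.379 CPM with IL-33 (SD, n = 3, edgeR, adjusted p = 0.123).

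**Figure D5:**
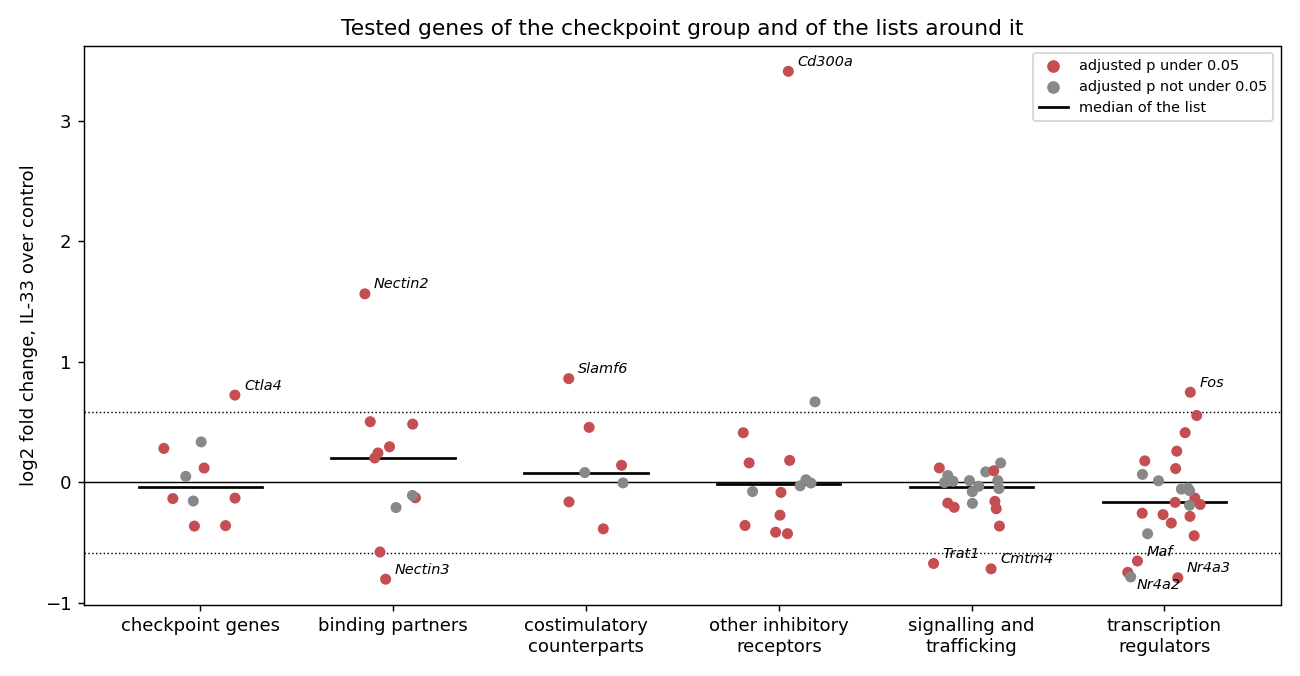
Log2 fold change, IL-33 over control (vertical axis), of each tested gene of the checkpoint group and of 5 lists around it, in red where edgeR's adjusted p was under 0.05, with the median of each list as a bar, dotted lines at the fold change threshold, and the genes past both thresholds named. Cd300a stands far above the rest at 3.41, and the transcription regulators have the lowest median at -0.17.

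Markers of other cells moved with IL-33 as well. The summed level of 7 coreceptor and NK cell genes was 575 to 608 CPM in the control libraries and 436 to 454 CPM with IL-33, nearly all of it Cd8a. Of its 4 tested genes Cd8b1 was the one that rose, from 9.68 ± 1.65 to 16.3 ± 2.07 CPM (SD, n = 3), and Cd4, Cd8a and Klrb1c fell. Klrb1c, the gene of the NK1.1 antigen that the sort selected against, had 33.5 ± 2.57 CPM in the control group and 25.6 ± 1.15 CPM with IL-33 (SD, n = 3, edgeR, adjusted p = 7.14e-06), while the other NK cell genes Ncr1, Klra8 and Klra4 were at or near 0. The summed level of the dendritic and myeloid list, of which 10 of 16 genes were tested, was 107 to 109 CPM in the control libraries and 85.1 to 94.3 CPM with IL-33. Itgax, which activated T cells can also express, fell from 54.6 to 26 CPM, Cd74 fell, H2-Ab1, Batf3 and Itgam rose, and Flt3, Csf1r, Lyz2 and Adgre1 were near 0. Other genes of this list were detected and not called, among them Xcr1 and Zbtb46. Xcr1 had 11.5 CPM in the control group and 12.4 CPM with IL-33, and Zbtb46 had 2.89 and 2.98 CPM. The sum of the mast cell and basophil list, with 4 of 12 genes tested, was 39.8 to 43.4 CPM and 28.6 to 33.4 CPM, with Cpa3 and Cma1 lower and Fcer1a and Ms4a2 near 0. Mcpt8 was detected and not called, with 5.81 CPM in the control group and 4.32 CPM with IL-33. For the B cell list, with 4 of 8 genes tested, the sum was 16.5 to 17.7 CPM and 17.3 to 22.6 CPM, with no gene called. The part of such cells in the values of Lag3, Pdcd1, Cd274 and Pdcd1lg2 was not tested.

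The tested genes on either side of each checkpoint gene were called about as often as genes in general. Of 18 such neighbours, 2 were higher (Icos and Cdh23), 3 were lower (Cd4, A930007I19Rik and Gm37198) and 13 were not called by edgeR's adjusted p, beside 27.5% of all genes tested that were called in either direction. Plgrkt, whose annotated end is 65 bases from Cd274, had 97.0 ± 3.03 and 98.5 ± 3.11 CPM (SD, n = 3), and Ptms, 1976 bases from Lag3, had 141 ± 6.01 and 134 ± 6.43 CPM (SD, n = 3), and neither passed the test. The genes whose levels followed that of Ctla4 most closely over the 6 libraries, by the Euclidean distance of centred log2 CPM, were Pmm1 (0.0833), Dgka (0.0867) and Vim (0.116). Pmm1 encodes a phosphomannomutase, Dgka a diacylglycerol kinase that limits T cell receptor signalling, and Vim vimentin. All of them were higher in every IL-33 library than in every control library, which follows from choosing them by closeness to Ctla4. Their means were 18.1, 180 and 334 CPM in the control group and 30.7, 291 and 547 CPM with IL-33.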

How the data were processed

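The deposited values are whole-number counts for every gene and library, not normalized, and 1 column named as a mean over libraries, which was not used. The submitters' processing notes name Bowtie 0.12.2 and mm8, with no role. The sources used here do not give the counting program, annotation or strand setting, and the labels and the methods name different library kits (TruSeq and NEBNext). A symbol and a GENCODE M21 model were found for 26072 of the 26128 Ensembl identifiers. Positions and lengths are from that annotation (GRCm38), which may not be the build counted on. Promoters were found in RefSeq for the checkpoint genes other than Lag3.

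Genes were filtered with filterByExpr (minimum count 10, minimum total 15), which removed 0.11% of the counts and left 14671 genes, and scaled by TMM. The labels gave the groups. The test was the quasi-likelihood test of edgeR (robust, two-sided, no covariates), and p values were adjusted over all 14671 genes by the method of Benjamini and Hochberg. The study's thresholds were used, an adjusted p of 0.05 and a fold change of 1.5. Ratios within libraries had 0.5 added to both counts and an exact permutation test over 20 splits. Software was DESeq2 1.42.0, edgeR 4.0.16, limma 3.58.1 and R 4.3.3. Library totals of 20256342 to 22336050 counts set the precision, and limits from counts cover counting error only.

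The checkpoint genes, the lists and the tests were chosen with earlier results of these data known. The genes named were the 10 checkpoint genes, the genes of the lists past both thresholds, the genes of the ratios, the tested neighbours, the 3 genes nearest in pattern to Ctla4, and called markers. Pvr, Cd80, Cd86, Ceacam1, Lgals9, Lgals3, Selplg, Hmgb1, Lilrb4a, Lair1, Crtam, Cd2, Ptpn6, Ptpn11, Lrba, Cmtm6, Prdm1, Tnfrsf14 and Tox were named after their values were seen. Alternatives were DESeq2, limma-voom, DESeq2 size factors, library totals alone, no filter, a stricter filter (1 CPM or more in each library of either group), a replicate block, a test against the fold change threshold, 2 added to the counts of ratios, and each library left out in turn.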

Additional observations from a re-analysis of the deposited data

How the results depend on the processing

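No checkpoint gene changed direction in any alternative run, and Ctla4, Lag3, Pdcd1, Vsir and Tigit kept an adjusted p under 0.05 in all 13 of the alternatives that gave them a fold change. The log2 fold change of Ctla4 ran from 0.70 to 0.76 and that of Lag3 from -0.38 to -0.35. With a library left out, 2 to 5 checkpoint genes were called lower, the 2 without IL-33 replicate 1, when Cd274 and Cd160 were lost, and 3 were called higher in every such fit. Pdcd1lg2 was called with library totals alone (-0.17, adjusted p = 0.0454) and without control replicate 1 (-0.23, adjusted p = 0.0103), and was smaller without control replicate 2 (-0.09, adjusted p = 0.425) or IL-33 replicate 3 (-0.10, adjusted p = 0.355). Btla had no value under the stricter filter. In the test against the fold change threshold, 75 genes of all tested were higher and 38 lower, against 363 and 351 by both thresholds; by construction it asks more of each gene. With a library left out, those past both thresholds were 318 to 383 higher and 303 to 354 lower.

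The log2 difference of the ratio of Tigit to Cd226 was -0.018 to 0.094 with a library left out, below 0 without IL-33 replicate 2. That of Cd274 to Pdcd1lg2 was -0.030 to 0.084, below 0 without control replicate 2, control replicate 3 or IL-33 replicate 3. Neither had a direction beyond its spread. That of Ctla4 to Icos was 0.17 to 0.36 and that of Btla to Cd160 0.24 to 0.57, lowest without IL-33 replicate 3 and replicate 1.

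Replicate numbers were not taken as pairing the samples, since deviations of libraries with the same number correlated at 0.0032 to 0.0116, though each library correlated best with its own number. With the replicate block, 3 checkpoint genes were higher and 4 lower, and Ctla4 changed by 0.72. Depth limits Btla most, with 15 to 27 counts per library.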
